A study of Homo sapiens with 15 samples.

Results

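RNA that came down with Brg1 in LNCaP cells was compared with the input RNA of the same cell line. LNCaP is an established human prostate cancer line that carries an active androgen receptor and has a luminal character. The comparison uses 4 of the 15 libraries of the series, chosen by their labels: Brg1 replicates A and B and input replicates A and B. Brg1 libraries were made with an antibody against the protein product of SMARCA4 and input libraries with no antibody, from formaldehyde-fixed cells grown in RPMI1640 medium; the labels name no treatment or genetic change. The LNCaP libraries with non-specific IgG, also replicates A and B, are given beside the results as background. The labels do not say whether A and B are separate cultures, so p-values measure the spread between these libraries, which may be technical. The table has 22169 rows for 14176 genes: 10718 rows carry a plain gene name and 11451 a gene name with the suffix .primary, whose meaning the sources used here do not state. Both rows exist for 7993 genes, 2725 genes have a plain row only and 3458 genes have a .primary row only.

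Brg1 is the ATPase of SWI/SNF complexes, which use ATP to slide or evict nucleosomes and so open chromatin for transcription. RNA immunoprecipitation recovers RNA held to a protein directly, through other proteins or, after formaldehyde, through chromatin. The study concerns SCHLAP1, a long non-coding RNA (lncRNA) of aggressive prostate cancer that has been described as a partner of SWI/SNF. A gene's RNA is present in a cell as nascent transcript at the chromatin, as processed RNA in the nucleus and, for most mRNAs, as mature message in the cytoplasm. Mitochondrial transcripts and the 7SL RNA of the signal recognition particle lie mainly outside the nucleus.

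The Brg1 libraries held 6367908 and 6927440 recovered reads in replicates A and B, and the input libraries 7054033 and 7506724. The IgG libraries held 22184 and 46297 reads, so a floor of 3 reads stood at 135 and 64.8 RPM there (RPM is the reads-per-million unit: a row's reads scaled to the library's total), above the level of most rows, and the IgG values cannot show which rows lie above background. Of the luminal prostate genes checked, 8 of 8 had rows, with 0.423% and 0.428% of the Brg1 reads and 0.511% and 0.495% of the input reads. Of 11 markers of other cell types (fibroblast, basal, endothelial, blood and others), 3 had rows (COL1A1, TP63 and VWF), and their sum did not exceed 0.00622% of any Brg1 or input library. Values below are shares in RPM, and differences are Brg1 minus input on the log2(RPM + 0.5) scale with the standard error (SE) from limma. A share says nothing of the total amount of RNA recovered.

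Among the rows that differed, most plain rows were lower and most .primary rows higher in Brg1 than in input. Of all rows, 2870 (12.9%) were called higher and 3092 (13.9%) lower at an adjusted p under 0.05 in limma. Among plain rows 225 (2.1%) were called higher and 2154 (20.1%) lower, with a median difference of -0.29 (quartiles -0.63 and 0.05). Among .primary rows 2645 (23.1%) were called higher and 938 (8.19%) lower, with a median of 0.19 (quartiles -0.29 and 0.69). edgeR with scaling by the trimmed mean of M values (TMM) called 402 plain rows higher and 1711 lower, and 3270 .primary rows higher and 736 lower. Scaled within each kind of row, 2635 plain rows were higher and 847 lower, and 1347 .primary rows were higher and 4260 lower, so both directions turned when the kinds were scaled apart. The factors of the deposited values moved the median of all rows by -1.33, and with them 13 plain rows were higher and 10225 lower and 42 .primary rows were higher and 8129 lower. The counts depended on single libraries: without input replicate B, 42 plain rows were higher and 159 lower and 245 .primary rows were higher and 121 lower. Without input replicate A the counts were 79, 450, 900 and 80 in the same order, without Brg1 replicate B 326, 1024, 1565 and 1192, and without Brg1 replicate A 203, 3041, 3371 and 689. The median of the plain rows lay between -0.40 and -0.16 and that of the .primary rows between 0.04 and 0.35 over these 4 fits.

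**Figure D1:**
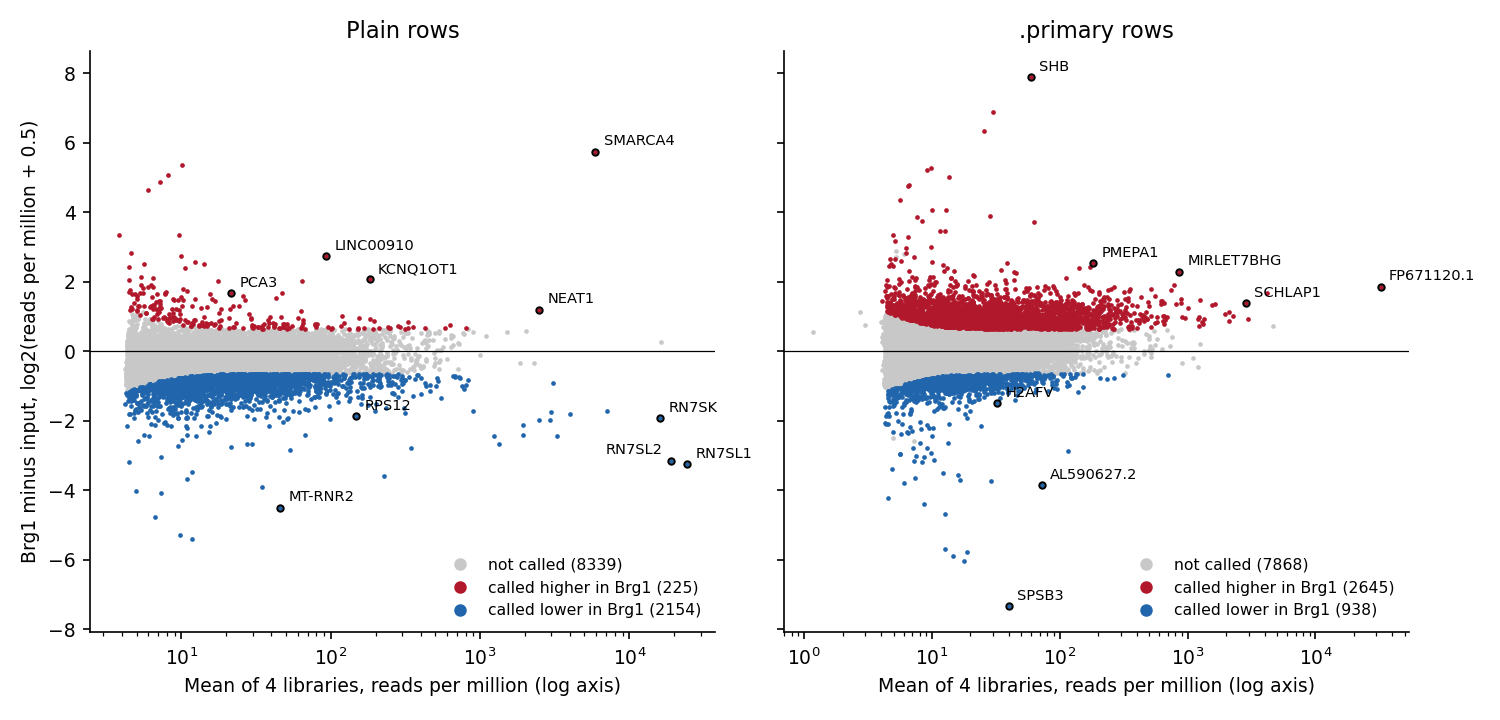
Each point is a row, with its mean share over the 4 libraries on a log axis and its log2 difference, Brg1 minus input, on the vertical axis, for plain rows (left) and .primary rows (right). Red and blue points are called higher and lower; in the left panel blue points (2154) outnumber red ones (225), and in the right panel red points (2645) outnumber blue ones (938), and SMARCA4 stands at 5.74.

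The .primary rows together took 50.8% and 60.5% of the reads in Brg1 replicates A and B and 42.3% and 35.2% in the input replicates. The groups did not overlap, and the difference of their means was 16.9 percentage points (55.7% ± 6.86 against 38.7% ± 5.02, SD, n = 2 each). An exact permutation test of 2 against 2 libraries cannot go below a two-sided p of 0.333. The IgG libraries stood above both, at 66.9% and 66.8%. Without the row FP671120.1.primary, which alone took 5.39% and 4.796% of the Brg1 reads and 1.29% and 1.52% of the input reads, the .primary share was 48.02% and 58.5% in Brg1 and 41.5% and 34.2% in input. That row, named for a genomic clone with no RefSeq match, was 1.86 higher (SE 0.35, adjusted p = 5.88e-06, limma), lost its call when any of the 4 libraries was left out (adjusted p 0.0542 to 0.133) or under the deposited factors (0.48, limma adjusted p 0.286), and took 4.38% and 1.84% of the IgG reads.

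SMARCA4, the gene that encodes Brg1, had the largest difference of any plain row with a mean share of at least 20 RPM (chr19:10961030-11062273, RefSeq GRCh38.p14). Its plain row took 12760 and 10410 RPM in Brg1 replicates A and B and 211 and 219 in the input replicates. The Brg1 mean was 54.0-fold above the input mean, and the groups did not overlap. The difference was 5.74 (SE 0.28, adjusted p = 2.71e-86, limma) and the call held without each library in turn. As a percentage of the library the row took 1.28% (95% Wilson interval 1.27% to 1.29%) and 1.04% (1.03% to 1.05%) in Brg1, and 0.0211% (0.0201% to 0.0222%) and 0.0218% (0.0208% to 0.0229%) in input. In IgG it took 0.721% (0.618% to 0.841%, 160 reads) in replicate A and 0.0194% (0.0102% to 0.0369%, 9 reads) in replicate B, so IgG replicate A also lay above input. These intervals cover counting error only. SMARCA4 has no .primary row in the table.

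Of 25 plain rows of SWI/SNF subunit genes, limma called SMARCA4 alone higher and 4 (16%) lower, beside 20.1% of all plain rows, while edgeR called 3 higher and 3 lower. The list had a median of -0.02 that turned positive under TMM, median-of-ratios and within-kind scaling. SMARCA2, which encodes the alternative ATPase of the complex, had 74.8 and 69.7 RPM in Brg1 and 47.9 and 51.3 in input. Its libraries did not overlap, but the difference of 0.54 (SE 0.26) did not pass (adjusted p = 0.103, limma), while edgeR gave 0.63 with an adjusted p of 0.0363. BICRAL, an accessory subunit, fell from 49.1 and 46.6 RPM in input to 27.3 and 23.5 in Brg1, a difference of -0.90 (SE 0.26, adjusted p = 0.00422, limma). PHF10, which defines the PBAF form of the complex, was 0.73 lower as a plain row (log2 difference -0.73, SE 0.27, adjusted p = 0.0278, limma), which DESeq2 did not call (0.0881). Of 18 .primary rows of subunit genes, 2 (11.1%) were called higher and 2 (11.1%) lower, beside 23.1% and 8.19% of all .primary rows. ARID1B.primary, of a DNA-binding subunit gene, was higher by 0.78 (286 and 373 against 209 and 173 RPM, adjusted p = 0.0159, limma). Without input replicate A these 3 calls were lost (adjusted p 0.183 for BICRAL, 0.243 for PHF10 and 0.254 for ARID1B.primary), and likewise without input replicate B (0.202, 0.334 and 0.506); PHF10 and ARID1B.primary also lost theirs without Brg1 replicate B (0.0545 and 0.113). With SMARCA4 included, the plain rows of the list took 1.55% and 1.26% of the Brg1 reads, 0.223% and 0.238% of the input reads and 0.870% and 0.134% of the IgG reads.

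SCHLAP1 differed by kind of row. SCHLAP1.primary (chr2:180692104-180916939) took 3917 and 4375 RPM in Brg1 and 1736 and 1443 in input. Both Brg1 libraries lay above both inputs, 2.61-fold by the means, with a difference of 1.39 (SE 0.29, adjusted p = 6.15e-05, limma). Under the deposited factors the difference of SCHLAP1.primary was 0.01 (adjusted p = 0.974, limma). The plain SCHLAP1 row was far lower in level, at 33.0 and 49.7 RPM in Brg1 and 39.3 and 37.8 in input. The groups overlapped there and the difference was 0.07 (SE 0.26, adjusted p = 0.870, limma). In IgG the .primary row held 23 and 55 reads (1037 and 1188 RPM) and the plain row 0 in each library. Without input replicate A the adjusted p of SCHLAP1.primary was 0.102 and without input replicate B 0.256, while without Brg1 replicate A or B the call held.

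The list of well-studied lncRNAs chosen as nuclear was split in direction, though it holds NORAD, which acts in the cytoplasm. Of 11 plain rows of the list 3 (27.3%) were called higher and 4 (36.4%) lower, beside 2.1% and 20.1% of all plain rows. Of 7 .primary rows 3 (42.9%) were called higher and 2 (28.6%) lower, beside 23.1% and 8.19% of all .primary rows. KCNQ1OT1, an antisense RNA that silences imprinted genes in cis (chr11:2608328-2699994), rose from 72.6 and 66.6 RPM in input to 292 and 296 in Brg1, a difference of 2.07 (SE 0.26, adjusted p = 3.57e-13, limma). NEAT1, the scaffold of paraspeckles, had 3329 and 3565 RPM in Brg1 and 1628 and 1378 in input, a difference of 1.20 (SE 0.29, adjusted p = 5.70e-04, limma), whose call was lost without input replicate A (adjusted p = 0.160) or B (0.332). MALAT1, an RNA of nuclear speckles, took 15960 and 19620 RPM in Brg1 and 16410 and 13140 in input. Its groups overlapped, and the difference of 0.27 (SE 0.34) did not pass (adjusted p = 0.586, limma). NORAD, which binds Pumilio proteins in the cytoplasm, fell from 213 and 257 RPM to 97.1 and 67.7, a difference of -1.53 (SE 0.26, adjusted p = 2.59e-07, limma; 0.0651 without input replicate B). DANCR, a snoRNA host, fell by 1.43 on the log2 scale (52.6 and 55.8 RPM in input, 26.4 and 14.7 in Brg1) and kept its call without each library. JPX.primary, of a lncRNA gene at the X inactivation centre, was 0.67 lower (log2 difference -0.67, adjusted p = 0.0382, limma), and neither edgeR with TMM (adjusted p = 0.0586) nor, in limma, the fits without Brg1 replicate A, input replicate A or input replicate B (0.167, 0.513 and 0.324) called it, while DESeq2 did (0.0492).

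Several non-coding RNAs were among the plain rows with the largest rises at a mean share of at least 20 RPM. LINC00910 (chr17:43369845-43388898) had 164 and 160 RPM in Brg1 and 24.5 and 23.4 in input, a difference of 2.73 (SE 0.26, adjusted p = 2.50e-23, limma). The row AC006504.1, named for a clone with no RefSeq match, differed by 2.03 (109 and 98.6 against 28.2 and 22.1 RPM). PCA3, a prostate-specific lncRNA used as a urine marker (chr9:76764436-76787569), rose from 8.79 and 11.3 RPM in input to 30.5 and 35.5 in Brg1, a difference of 1.67 (SE 0.27, adjusted p = 4.04e-08, limma). MIR3648-1, whose annotated position (chr21:8208473-8208652) lies within the ribosomal RNA unit RNA45SN2 (chr21:8205988-8219302), had 87.2 and 58.3 RPM in Brg1 and 18.6 and 25.6 in input, a difference of 1.69 (SE 0.26, adjusted p = 8.54e-09, limma). Reads on that row cannot be told apart from reads of the surrounding precursor. LINC00910, AC006504.1, PCA3 and MIR3648-1 kept their calls without each library in turn, and in IgG each held 0 to 2 reads. The 2 reads of MIR3648-1 in IgG replicate A are 90.2 RPM, above its Brg1 shares. In that library LINC00910 also had 90.2 RPM and AC006504.1 45.1 RPM, each above its input shares and below its Brg1 shares. KCNQ1OT1, which also kept its call, held 13 and 19 reads in IgG, a share of 586 and 410 RPM that lies above its Brg1 share. Under the deposited factors AC006504.1 (0.67, adjusted p = 0.0574, limma), MIR3648-1 (0.33, 0.405) and PCA3 (0.34, 0.297) were not called.

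The other miRNA row, MIR663A (chr20:26208186-26208278, within the host gene MIR663AHG), was chosen after its values were seen because it completes this class: both of its 2 rows were called higher. It had 31.9 and 27.6 RPM in Brg1 and 12.05 and 12.8 in input, a difference of 1.22 (SE 0.27, adjusted p = 1.011e-04, limma; 0.0550 without input replicate B), and 0 and 1 reads in IgG. The row counts fragments over the gene, and nothing here shows that they are the mature miRNA. The mature sequence of hsa-miR-663a, from RefSeq (GRCh38.p14) and shown to identify the row, is printed with its seed (bases 2 to 8) in capitals.
hsa-miR-663a: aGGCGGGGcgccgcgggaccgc

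Mitochondrial transcripts, 7SL RNAs and the rows annotated as snRNA took a smaller share of the Brg1 reads than of the input reads. Of 21 rows of mitochondrially encoded genes, each plain, 20 (95.2%) were called lower and 0 higher, beside 20.1% and 2.1% of all plain rows. Their median was -1.96, and 20 were called lower by edgeR with TMM. Together they took 1.40% and 0.786% of the Brg1 reads and 3.86% and 4.58% of the input reads, 3.85-fold less by the means, and 1.07% and 2.31% of the IgG reads. MT-RNR2, the large ribosomal RNA of mitochondria, fell from 89.2 and 85.5 RPM in input to 6.75 and 1.59 in Brg1, a difference of -4.50 (SE 0.27, adjusted p = 1.74e-59, limma). Ribosomal RNA was depleted before sequencing, so this level is what depletion left. MT-ND6, the complex I subunit encoded on the light strand, fell from 579 and 620 RPM to 124 and 60.2 (-2.79, SE 0.26). MT-CO1, a cytochrome oxidase subunit, fell from 9789 and 11800 to 4116 and 2614 RPM (-1.71, SE 0.31, adjusted p = 2.35e-06, limma), and was not called without Brg1 replicate B, input A or input B (adjusted p 0.0671, 0.0511 and 0.153). The row outside this pattern, MT-TS1, a serine tRNA, had 137 and 83.6 RPM in Brg1 and 77.0 and 85.0 in input, and its difference of 0.40 did not pass (adjusted p = 0.240, limma). MTND1P23, a nuclear copy of mitochondrial sequence on chromosome 1 (chr1:629062-629440), also fell (-3.57, SE 0.26); its reads may be shared with the mitochondrial gene. Over the fits without each library, 15 to 20 of the 21 rows were called lower; without Brg1 replicate B, MT-TS1 was called higher (limma adjusted p = 0.0267).

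The 7SL RNA rows, annotated as scRNA, were called lower in 3 of 3 cases, beside 20.1% of all plain rows. RN7SL1 (chr14:49586580-49586878) fell from 36330 and 51220 RPM in input to 6221 and 3335 in Brg1, a difference of -3.24 (SE 0.33, adjusted p = 2.14e-19, limma). RN7SL2 fell from 28160 and 39380 to 5157 and 2755 (-3.14, SE 0.33), and the far less abundant RN7SL3 from 127 and 194 reads to 10 in each Brg1 library (-3.46, SE 0.37). RN7SL4P, annotated as a 7SL pseudogene, fell by 2.84 on the log2 scale. These are near-identical copies, so the split of reads among them is uncertain. The class took 1.14% and 0.609% of the Brg1 reads and 6.45% and 9.06% of the input reads, with 0.951% and 3.13% in IgG. The 5 rows annotated as snRNA were called lower, 5 of 5, again beside 20.1% of all plain rows. They took 0.826% and 0.538% of the Brg1 reads and 2.21% and 2.90% of the input reads (IgG 0.329% and 1.009%). Among them RN7SK, which holds the elongation factor P-TEFb inactive, fell from 21900 and 28820 RPM to 8217 and 5325 (-1.93, SE 0.33, adjusted p = 4.91e-07, limma). RPPH1, the RNA of ribonuclease P, fell from 5448 and 6982 to 1993 and 1546 (-1.81, SE 0.30, adjusted p = 1.22e-07, limma). The 7SL rows kept their calls without each library, whereas RN7SK was not called without Brg1 replicate B (limma adjusted p = 0.0912) or input replicate B (0.139), nor RPPH1 without input replicate B (0.109). Of the 19 rows of the fixed list of small structured RNAs, each plain, 9 (47.4%) were called lower and 0 higher, with a median of -0.67. Among all plain rows 20.1% were lower and 2.1% higher. Without input replicate A or B 2 of the 5 snRNA rows were called lower, and 6 and 4 of the 19.

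**Figure D2:**
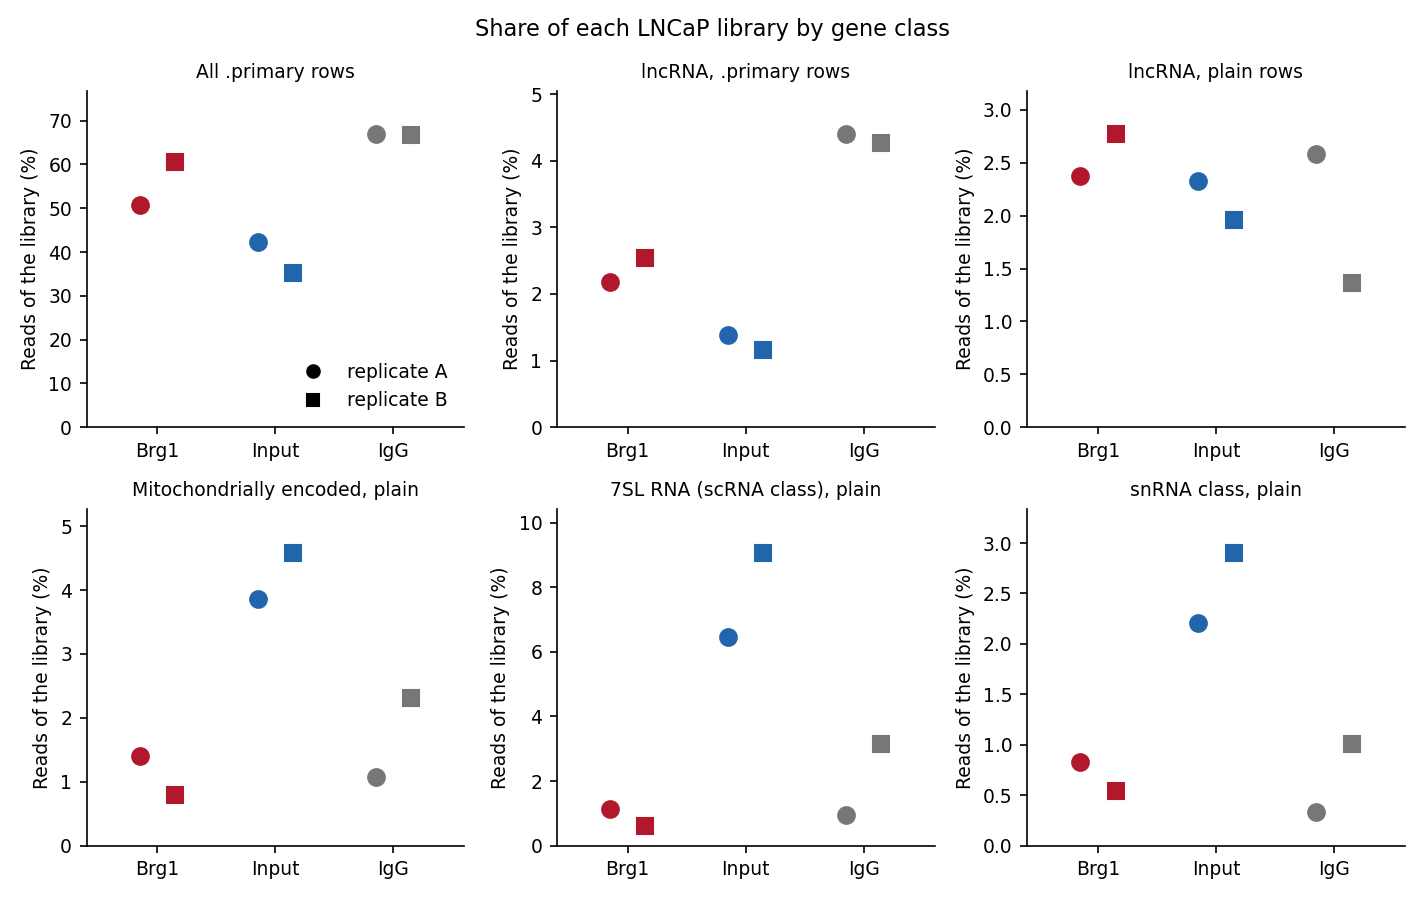
Each panel plots the percentage of a library's reads (vertical axis, from 0) that fell on a class of rows in the 2 Brg1, 2 input and 2 IgG libraries, with circles for replicate A and squares for replicate B. Mitochondrial, 7SL and snRNA rows lie lower in Brg1 than in input and .primary rows lie higher (50.8% and 60.5% against 42.3% and 35.2%), and for .primary rows IgG (66.9% and 66.8%) lies above Brg1.

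Messages for the cytoplasmic ribosomal proteins fell as a group in both kinds of row. Of 83 plain rows 60 (72.3%) were called lower and 0 higher (median -0.78), beside 20.1% and 2.1% of all plain rows. Of 47 .primary rows 24 (51.1%) were called lower and 0 higher (median -0.76), beside 8.19% and 23.1% of all .primary rows. These medians stood at -0.49 and -0.94 relative to all rows of their kind and stayed negative under each scaling tried. The plain rows took 1.91% and 1.24% of the Brg1 reads, 2.48% and 2.92% of the input reads and 1.25% and 1.17% of the IgG reads. The counts of lower rows moved with single libraries, to 4 plain and 6 .primary rows without input replicate B, 9 and 2 without input replicate A, 21 and 29 without Brg1 replicate B, and 73 and 19 without Brg1 replicate A. RPS12, of the small subunit, fell from 216 and 245 RPM in input to 88.6 and 44.6 in Brg1, a difference of -1.86 (SE 0.26, adjusted p = 1.008e-10, limma). RPL22, of the large subunit, fell from 55.9 and 60.5 to 18.5 and 15.01 (-1.77, SE 0.26, adjusted p = 1.55e-09, limma). Both kept their calls without each library. RPL13A.primary fell from 53.0 and 46.1 to 19.9 and 22.2 RPM (-1.21), and RPSA.primary from 32.5 and 27.3 to 15.2 and 11.4 (-1.146). Without input replicate A these .primary calls were lost (adjusted p 0.0706 and 0.0904), and that of RPSA.primary also without input replicate B (0.0519). Ribosomal protein genes have many processed copies in the genome, so reads on their rows may be split.

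Many of these messages begin with a cytosine followed by a run of pyrimidines at the start of transcription, the 5' terminal oligopyrimidine sequence through which their translation responds to nutrients. The start windows of the rows named here are shown for that reason, each with 20 bases before and 20 after the RefSeq start (GRCh38.p14), on the gene's strand, with capitals for the run that begins at the start. TPT1, a translationally controlled message outside the ribosome, is included as a further gene with the run, and SF3B4 and FLNA, described below, as genes without it. The windows with the run belong to named rows called lower, and those without it to named rows called higher. This printed set therefore cannot show a link between the run and the difference.
RPS12 (chr6:132814549-132814588, plus strand): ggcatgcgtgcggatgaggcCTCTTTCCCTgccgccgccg
RPL22 (chr1:6199576-6199615, minus strand): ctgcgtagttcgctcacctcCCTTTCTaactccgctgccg
RPL13A (chr19:49487588-49487627, plus strand): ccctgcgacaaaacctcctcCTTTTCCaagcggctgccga
RPSA (chr3:39406700-39406739, plus strand): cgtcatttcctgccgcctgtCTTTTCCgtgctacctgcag
TPT1 (chr13:45341164-45341203, minus strand): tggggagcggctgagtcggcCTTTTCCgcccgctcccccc
SF3B4 (chr1:149927784-149927823, minus strand): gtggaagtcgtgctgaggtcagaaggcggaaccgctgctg
FLNA (chrX:154374615-154374654, minus strand): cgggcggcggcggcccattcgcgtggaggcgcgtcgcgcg
A run was counted where the first base was C and at least 4 pyrimidines followed, on the gene's strand only, which holds for 5.14% of the 27305 genes with a listed start. Of the plain ribosomal protein rows with a listed start, 48 (71.6%) had the run, with a median difference of -0.86 and 39 called lower, and 19 did not, with a median of -0.56 and 7 called lower. Among all other plain rows the medians were -0.35 for 609 rows with the run and -0.28 for 7718 rows without it. The .primary ribosomal protein rows stood in the other order. Their median was -0.70 for 30 rows with the run, 15 called lower, and -0.87 for 7 rows without it, 4 called lower. A link between the run and the difference was not tested. The match describes the annotated start and says nothing of the start used in these cells.

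Plain rows of non-coding snoRNA hosts and of secretory pathway messages were also called lower more often than the 20.1% of all plain rows. Plain rows of translation factors were not. The .primary rows of each of these lists, translation factors included, were called lower more often than the 8.19% of all .primary rows. These are counts, with no test of the difference. TPT1 fell from 316 and 386 RPM in input to 134 and 96.1 in Brg1, a difference of -1.62 (SE 0.26, adjusted p = 4.33e-08, limma; 0.0562 without input replicate B). Of 36 plain translation factor rows 6 (16.7%) were called lower and 0 higher, with a median of -0.24. Of 30 .primary rows 9 (30%) were lower and 2 (6.67%) higher, with a median of -0.37. Among all .primary rows 8.19% were lower and 23.1% higher, with a median of 0.19. The non-coding hosts of snoRNAs, whose introns carry the guide RNAs of rRNA modification, were called lower in 12 of 21 plain rows and higher in 0, with a median of -0.88, and in 4 of 13 .primary rows, with 1 higher. SNHG16 fell from 95.6 and 108 RPM to 40.7 and 24.8 (-1.66), and SNHG8 from 43.0 and 39.6 to 18.1 and 12.3 (-1.44); both kept their calls without each library. GAS5.primary fell by 0.99 on the log2 scale and SNHG22.primary rose by 0.97; both lost their calls without input replicate A (adjusted p 0.178 and 0.0821) or B (0.0989 and 0.224). Messages of the secretory pathway, translated at the endoplasmic reticulum, were called lower in 22 of 40 plain rows and higher in 1 (median -0.66), and in 6 of 32 .primary rows (median -0.41). TMED2, a cargo receptor of transport vesicles, fell from 103 and 109 RPM to 46.8 and 35.5 (-1.37; limma adjusted p 0.0611 without input replicate B). CANX.primary, of the chaperone calnexin, fell from 74.0 and 56.5 to 25.3 and 33.1 (-1.147; 0.143 and 0.0504 without input A and B). SRP54, the protein that binds signal peptides in the signal recognition particle, was the row called higher, with 45.2 and 36.2 RPM in Brg1 and 22.97 and 26.5 in input (0.70, adjusted p = 0.0307, limma), but was not called without Brg1 replicate A (0.117), input A (0.402) or input B (0.289). Without input replicate B the plain rows called lower were 4 of the snoRNA hosts and 0 of the secretory and translation factor lists; without input replicate A they were 5, 5 and 1, without Brg1 replicate B 11, 7 and 2, and without Brg1 replicate A 13, 30 and 11.

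**Figure D3:**
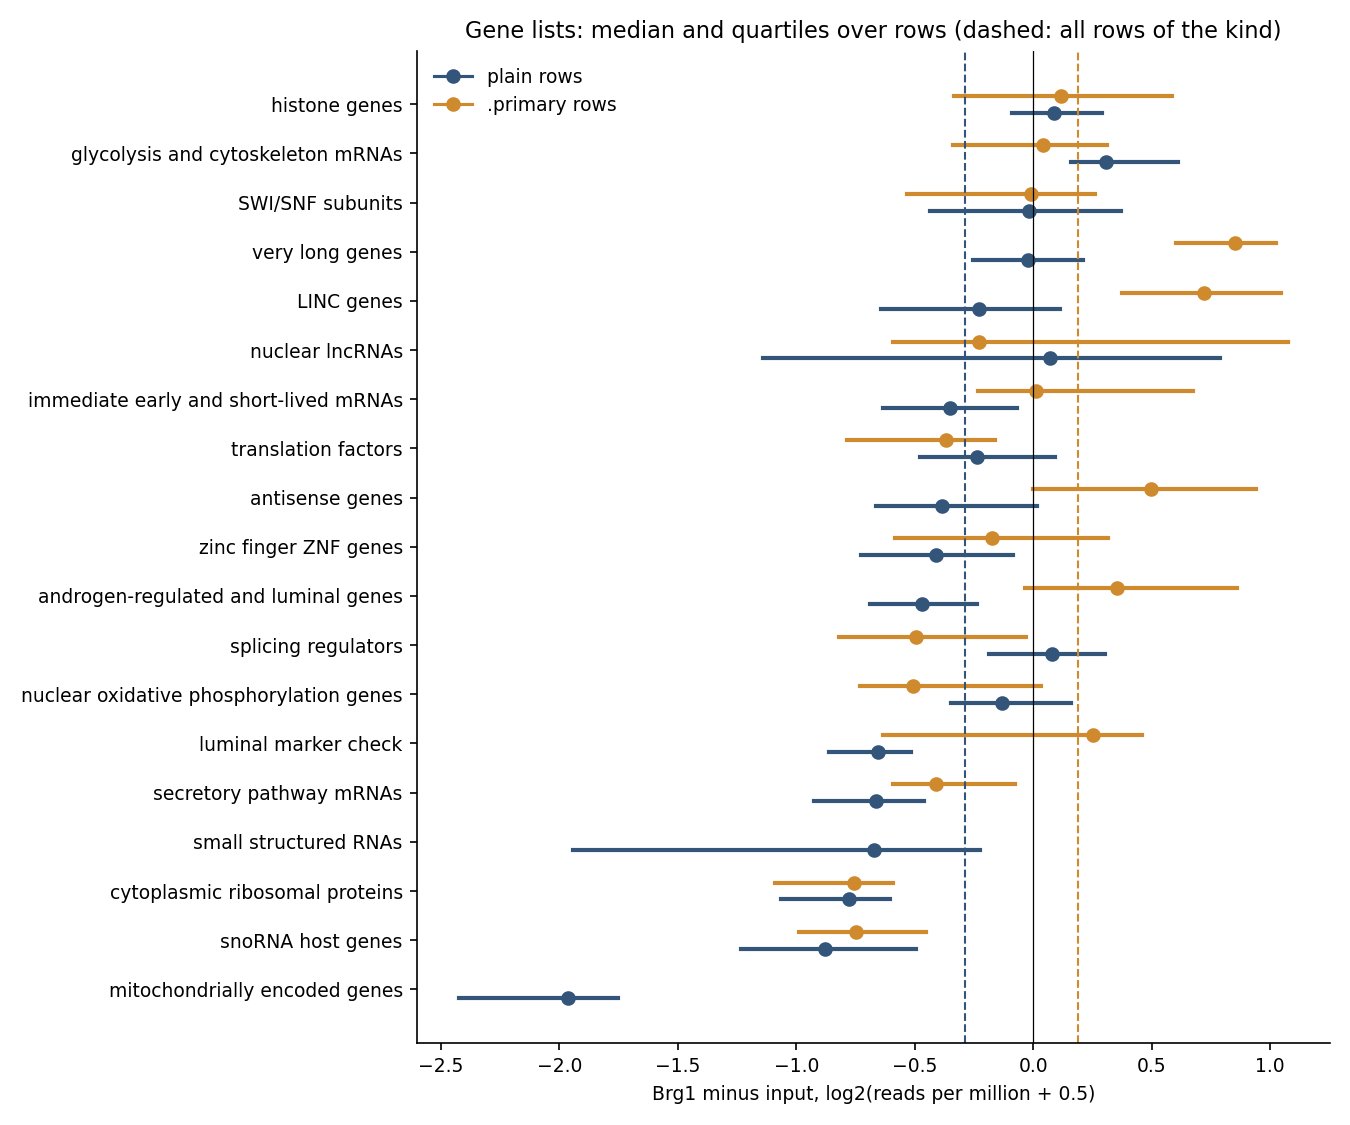
For each gene list the point is the median log2 difference, Brg1 minus input, over its rows and the bar spans the quartiles, with plain rows in blue and .primary rows in orange and lists of fewer than 5 rows left out. Dashed lines mark the medians of all plain (-0.29) and all .primary rows (0.19); mitochondrial genes (-1.96) and snoRNA hosts lie at the low end, and the .primary rows of very long (0.85) and LINC genes (0.72) at the high end.

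Messages of splicing regulators, glycolysis, the cytoskeleton and histones had plain rows with medians above 0. Of 59 plain splicing regulator rows 2 (3.39%) were called higher and 0 lower, beside 2.1% and 20.1% of all plain rows. Their median of 0.08 turned negative under the deposited factors and without Brg1 replicate A (-0.07). The .primary splicing rows stood the other way, with 19 of 51 (37.25%) called lower and 4 (7.84%) higher and a median of -0.49. Among all .primary rows 8.19% were lower and 23.1% higher. SF3B4, a subunit of the U2 snRNP, had 56.1 and 48.2 RPM in Brg1 and 25.9 and 26.1 in input as a plain row (0.98, SE 0.26, adjusted p = 0.00163, limma). HNRNPH2, a splicing repressor and activator, had 58.0 and 45.3 against 25.5 and 37.4 (0.72, adjusted p = 0.0255, limma). NONO.primary, of a paraspeckle protein, fell from 39.8 and 24.9 to 13.03 and 12.9 (-1.25), and HNRNPR.primary fell by 1.03 on the log2 scale. HNRNPD.primary, of the AU-rich element binding protein AUF1, rose from 52.3 and 49.0 to 95.8 and 109 (1.005), and CLK3.primary, of a kinase of splicing factors, rose by 0.99. Of these 6 rows only NONO.primary kept its call without input replicate B, and none kept it without input replicate A (adjusted p 0.122 to 0.574), while HNRNPH2 also lost it without Brg1 replicate A (0.109); without input replicate B the lost calls had adjusted p from 0.0885 to 0.298. Without input replicate A or B no plain splicing row was called in either direction.

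Of 42 plain rows for glycolysis and cytoskeleton genes 7 (16.7%) were called higher and 2 (4.76%) lower, beside 2.1% and 20.1% of all plain rows. Their median of 0.31 turned negative under the deposited factors. It was 0.10 without Brg1 replicate A and 0.53 without Brg1 replicate B. The calls of higher rows depended on single libraries. FLNA, which crosslinks actin, had 300.3 and 187 RPM in Brg1 and 141 and 109 in input (0.93, SE 0.26, adjusted p = 0.00303, limma). TUBB4B, a tubulin, had 362 and 239 against 162 and 202 (0.70, adjusted p = 0.0316, limma). TMSB10, which sequesters actin monomers, fell from 43.5 and 56.1 to 30.9 and 17.9 (-1.05). Of 61 plain histone rows 2 (3.28%) were called higher and 3 (4.92%) lower, beside 2.1% and 20.1% of all plain rows. Their median of 0.09 turned negative under the deposited factors and without Brg1 replicate A (-0.15) or input replicate A (-0.08). HIST1H1E, a linker histone, had 286 and 227 RPM in Brg1 and 136 and 187 in input (0.67, adjusted p = 0.0390, limma). Of 12 .primary rows of histone genes 3 (25%) were called higher and 1 (8.33%) lower, near the 23.1% and 8.19% of all .primary rows. H2AFY.primary (246 and 282 against 110 and 90.1 RPM, 1.40) and H2AFY2.primary (64.1 and 73.2 against 29.2 and 22.0, 1.42), of the macroH2A genes, were higher. The lower row was H2AFV.primary, of an H2A.Z gene (349 and 350 reads in input, 121 and 104 in Brg1, -1.48). H2AFV.primary kept its call without each library. Under the deposited factors the differences of H2AFY.primary and H2AFY2.primary were 0.03 and 0.06, and neither was called (limma adjusted p 0.924 and 0.850). Without input replicate B, FLNA, TUBB4B, TMSB10, HIST1H1E and both macroH2A rows were not called (adjusted p 0.0926 to 0.411), and without Brg1 replicate A neither were FLNA, TUBB4B and HIST1H1E (0.0824 to 0.275). FLNA, TUBB4B and HIST1H1E lost their calls without input replicate A also (0.136 to 0.642), and TMSB10 without Brg1 replicate B (0.0601). Of the nuclear-encoded oxidative phosphorylation genes, 1 of 80 plain rows was called higher and 7 (8.75%, beside 20.1% of all plain rows) lower, and without Brg1 replicate A 18 were lower and without any other library 0. The higher row was SDHA, the flavoprotein of succinate dehydrogenase (0.79), whose .primary row was also higher (0.91); both were lost without input replicate A (adjusted p 0.403 and 0.0903) or B (0.249 and 0.349), and the plain row without Brg1 replicate A (0.0502). UQCR11, a subunit of complex III, fell by 0.97 on the log2 scale, a call lost without Brg1 replicate B (0.0684), input A (0.138) and input B (0.158).

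Androgen-regulated and luminal genes had more plain rows called lower than higher and more .primary rows called higher than lower, as had all rows. Of 37 plain rows 2 were called higher and 11 (29.7%, beside 20.1% of all plain rows) lower (median -0.47), and of 35 .primary rows 13 (37.1%, beside 23.1% of all .primary rows) were called higher and 4 lower (median 0.36, which turned negative when scaled within the kind or by the deposited factors). Without input replicate B 2 plain rows were lower and 1 .primary row was higher, without input replicate A 3 and 3, without Brg1 replicate B 6 and 8, and without Brg1 replicate A 20 and 16. PMEPA1, an androgen-induced inhibitor of TGF-beta signalling (chr20:57648396-57711472), showed both directions. Its plain row fell from 60.5 and 65.4 RPM in input to 14.6 and 13.3 in Brg1 (-2.14, SE 0.26, adjusted p = 9.55e-14, limma). PMEPA1.primary rose from 59.0 and 47.8 to 287 and 333 RPM (2.53, SE 0.26, adjusted p = 6.19e-20, limma), and both calls held without each library. KLK3, which encodes prostate-specific antigen, was lower as a plain row (1020 and 1094 RPM in input, 678 and 515 in Brg1, -0.84, adjusted p = 0.0130, limma), but not without Brg1 replicate B (0.166), input A (0.323) or input B (0.442). KLK4.primary, of a related kallikrein, fell by 0.86 on the log2 scale. MBOAT2, an androgen-induced acyltransferase, fell from 63.5 and 71.7 to 31.6 and 28.7 RPM (-1.151). KRT18, a luminal keratin, was higher as a plain row (355 and 261 against 178 and 207 RPM, 0.66, adjusted p = 0.0439, limma). Without input replicate B these 3 were not called (adjusted p 0.142 to 0.405). Nor were KLK4.primary (0.148) and KRT18 (0.548) without input A, and KRT18 (0.230) without Brg1 replicate A. Immediate early and short-lived messages were called lower in 5 of 24 plain rows (20.8%, near the 20.1% of all plain rows) and higher in 0. JUND, of the AP-1 family, fell from 68.1 and 84.5 to 37.2 and 30.3 RPM (-1.16; limma adjusted p 0.177 without input replicate B), and without that library 0 of the 24 rows were called.

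The lncRNA class had more .primary rows called higher than lower and more plain rows called lower than higher, as had all rows. Of 528 .primary lncRNA rows 194 (36.7%, beside 23.1% of all .primary rows) were called higher and 34 (6.44%, beside 8.19%) lower (median 0.60). Of 235 plain lncRNA rows 28 (11.9%, beside 2.1% of all plain rows) were called higher and 58 (24.7%, beside 20.1%) lower (median -0.28). The .primary lncRNA rows took 2.17% and 2.54% of the Brg1 reads, 1.39% and 1.152% of the input reads and 4.40% and 4.27% of the IgG reads. LINC genes, named as long intergenic RNAs, were called higher in 77 of 188 .primary rows and lower in 11 (median 0.72), with 3.34% and 2.97% of the IgG reads against 0.667% and 0.771% in Brg1 and 0.405% and 0.348% in input. LINC01667.primary had 1207 and 1277 RPM in Brg1 and 356 and 307 in input (1.91, SE 0.27, adjusted p = 3.35e-10, limma). LINC01237.primary had 110 and 132 against 35.2 and 29.2 (1.89, SE 0.26). Antisense genes were called higher in 80 (33.2%) of 241 .primary rows and lower in 12 (4.98%), with a median of 0.50. MCM3AP-AS1.primary had 74.1 and 85.8 against 26.9 and 21.5 RPM (1.71, SE 0.26). FGD5-AS1, as a plain row, fell from 33.5 and 37.0 to 13.2 and 1.59 (-2.74, SE 0.28), with Brg1 libraries that differed widely from each other, and DESeq2 did not call it (adjusted p = 0.218). The kit was stranded, per the labels, but the strand setting used in counting is not given in the sources used here, so reads of antisense genes and their partners may not be separate. MIRLET7BHG.primary, of a let-7 host gene (chr22:46085997-46113928), had 1298 and 1568 against 312 and 272 (2.29, SE 0.27, adjusted p = 1.16e-14, limma). These rows kept their calls without each library. Under the deposited factors LINC01667.primary (0.53), LINC01237.primary (0.53) and MCM3AP-AS1.primary (0.35) were not called (limma adjusted p 0.117, 0.0917 and 0.253). The 3 .primary medians turned negative under the deposited factors, and without input replicate B the rows called higher fell to 31 of the lncRNA, 15 of the LINC and 9 of the antisense rows, with medians of 0.47, 0.58 and 0.36.

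Several of the largest .primary differences rested on rows near 0 in a group. SHB.primary, of an adaptor protein of receptor signalling, had 107 and 130 RPM in Brg1 and 0 reads in each input, where its plain row was lower in Brg1 (-0.89, adjusted p = 0.0259, limma). Against the floor of 3 reads in each input library it was at least 287-fold higher. MED26.primary, of a Mediator subunit, had 46.5 and 73.3 RPM in Brg1 and 0 reads in input, at least 145-fold higher. FAM196A.primary had 285 and 401 reads in Brg1 and 1 read in each input, a pooled ratio of 376 with an exact 95% interval from 104 to 3108. That interval covers counting error only, not the spread between libraries. In IgG FAM196A.primary held 0 and 12 reads, and the 12 reads in replicate B are 259 RPM, above its Brg1 shares (44.8 and 57.9 RPM). SHB.primary held 3 and 0 reads in IgG, and the 3 reads in replicate A are 135 RPM, also above its Brg1 shares. SLC5A4.primary had 1 and 125 reads in the inputs and 272 and 382 in Brg1, and PCDHGB1.primary 14 and 206 in the inputs and 569 and 931 in Brg1. In both rows the inputs differed from each other far more than the Brg1 libraries did, and DESeq2 did not call either (adjusted p 0.430 and 0.161). In the other direction SPSB3.primary, of a ubiquitin ligase adaptor, had 89.6 and 70.7 RPM in input and 0 reads in each Brg1 library, at least 177-fold lower. AL590627.2.primary fell from 145 and 124 RPM to 6.91 and 11.4 (-3.84, SE 0.26), and AL163540.1.primary from 34.3 and 27.4 to 13.5 and 9.24 (-1.42). CU633967.1.primary had 155 and 0 reads in Brg1 and 289 and 385 in input, and AL365436.2.primary 33 and 133 against 222 and 195. DESeq2 called neither of these last 2 rows (adjusted p 0.723 and 0.353), and AL365436.2.primary also lost its call without Brg1 replicate A (0.109).

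The .primary rows lay higher in Brg1 the longer the gene. Rows were placed in 5 bins of equal size by the span of the gene in RefSeq, which was known for 89.0% of .primary and 95.7% of plain rows. In .primary rows the median difference ran from -0.24 in the shortest bin (249 to 16235 bases) through -0.06, 0.03 and 0.28 to 0.69 in the longest (124701 to 2473620 bases). The percentage called higher ran from 8.97% to 47.5% and the percentage called lower from 15.6% to 0.834%, beside 23.1% and 8.19% in all .primary rows. Taken alone, Brg1 replicate A had medians from -0.37 to 0.55 and replicate B from -0.06 to 0.84 against the input mean, so the order held in both. In plain rows the medians ran only from -0.35 to -0.26. The longest bin of .primary rows took 20.3% and 24.9% of the Brg1 reads, 14.9% and 12.2% of the input reads and 27.1% and 28.1% of the IgG reads. Its median stayed positive without each library, from 0.55 to 0.84, and turned negative under the deposited factors. The rows called higher in it numbered 41 without input replicate B, 274 without input A, 569 without Brg1 B and 1174 without Brg1 A, against 968 with all 4 libraries. Longer genes also had higher mean shares in .primary rows (median 38.2 RPM in the longest bin, 9.16 in the shortest), and the part of depth in the percentages called was not tested.

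The list of very long genes, chosen by name, had 27 of 43 .primary rows (62.8%) called higher and 0 lower (median 0.85). Among all .primary rows 23.1% were higher and 8.19% lower, and in the longest bin by span 47.5% and 0.834%. Of 22 plain rows 0 were called higher and 2 (9.09%) lower (median -0.02), beside 2.1% and 20.1% of all plain rows. FTO.primary, of an RNA demethylase gene with long introns (chr16:53703963-54121941), rose from 80.4 and 76.1 to 248 and 291 RPM (1.77, SE 0.26, adjusted p = 1.05e-09, limma) and kept its call without each library, but not under the deposited factors (0.40, limma adjusted p 0.189). NCAM2, an adhesion molecule gene, was lower as a plain row (293 and 318 in input, 195 and 163 in Brg1, -0.77, adjusted p = 0.0164, limma), but not without Brg1 replicate B (0.0852), input A (0.299) or input B (0.437). Zinc finger genes of the ZNF family, many of which repress transposable elements, had 330 .primary rows. Of these 42 (12.7%) were called higher and 55 (16.7%) lower, beside 23.1% and 8.19% of all .primary rows. Of 331 plain rows 4 (1.21%) were higher and 69 (20.8%) lower, beside 2.1% and 20.1% of all plain rows. Each of these counts was smaller without input replicate B, and the differences from all rows were not tested. ZNF664 fell as a plain row from 97.3 and 115 to 41.8 and 25.3 RPM (-1.69, SE 0.26), while ZNF780B.primary rose from 37.9 and 30.1 to 80.3 and 83.2 (1.26; limma adjusted p 0.145 without input replicate B). Without input replicate B 1 very long gene was called higher, against 4 without input replicate A, 19 without Brg1 replicate B and 33 without Brg1 replicate A, with medians from 0.69 to 1.02.

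**Figure D4:**
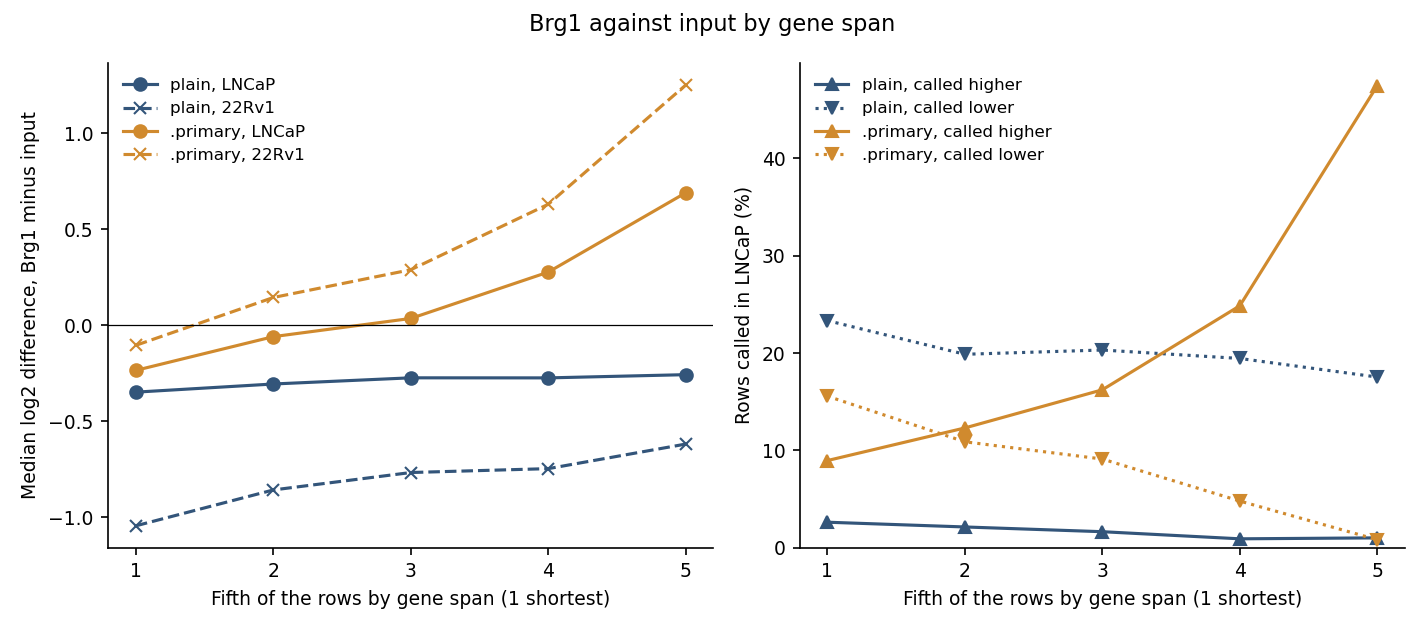
The left panel plots the median log2 difference, Brg1 minus input, in each of 5 bins of rows by gene span, for LNCaP (solid) and 22Rv1 (dashed), and the right panel the percentage of rows called in LNCaP. In .primary rows (orange) the LNCaP median runs from -0.24 to 0.69 and the percentage called higher from 8.97% to 47.5%, while plain rows (blue) change little.

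Genes with only a .primary row had a higher median than those with both rows. Of the 3458 rows of such genes 1192 were called higher and 148 lower, with a median of 0.58, against 1453 and 790 of the 7993 .primary rows of genes that also have a plain row (median 0.02). They took 13.6% and 14.2% of the Brg1 reads, 7.47% and 6.87% of the input reads and 22.0% and 25.9% of the IgG reads. Genes with only a plain row took 15.5% and 12.5% of the Brg1 reads and 23.5% and 28.1% of the input reads.

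Within the 7993 genes that have both rows, the ratio of the .primary to the plain share was higher in Brg1. In limma 1059 genes (13.2%) were called higher and 72 (0.901%) lower, and the median change was 0.31. The Brg1 and input libraries did not overlap in 3237 genes upward (40.5%) and 1194 downward (14.9%). The median log2 ratio was -0.02 in Brg1 replicate A, 0.53 in Brg1 B, 0.07 in input A and -0.30 in input B. Brg1 replicate A thus lay between the inputs, and the shift of the median rested on Brg1 replicate B and input replicate B. Centred on the median gene, 1127 genes were higher and 1114 lower. Without input replicate B 38 genes were higher and 7 lower, without input replicate A 189 and 11, without Brg1 replicate B 418 and 107, and without Brg1 replicate A 1855 and 73. Summed over these genes, .primary reads were 1.11 and 1.71 times the plain reads in Brg1, 1.02 and 0.771 times in input and 2.04 and 2.10 times in IgG.

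Among genes whose rows both had a mean share of at least 20 RPM, PMEPA1 had the largest change of ratio, with log2 ratios of 4.25 and 4.598 in Brg1 and -0.04 and -0.45 in input (change 4.67, SE 0.45, adjusted p = 4.50e-22, limma). EFNA5, an ephrin ligand (chr5:107376894-107670937), had log2 ratios of 6.55 and 7.34 in Brg1 and 3.67 and 3.43 in input (change 3.401, SE 0.41, adjusted p = 1.08e-13, limma). Its .primary row rose by 1.36 while its plain row fell by 2.04 on the log2 scale. NECTIN1, an adhesion receptor, changed by 2.94, KLF13, a Krüppel-like transcription factor, by 2.93 and TP53I11 by 2.93. In each of these 5 genes both Brg1 libraries were above both inputs, with a difference above 0 in the .primary row and below 0 in the plain row. The call held without each library except for TP53I11, whose adjusted p was 0.0745 without input replicate B. Of the genes that changed downward, PELP1, a nuclear receptor coregulator, had log2 ratios of -2.77 and -2.07 in Brg1 and -0.66 and -1.17 in input (change -1.50, SE 0.54, adjusted p = 0.0409, limma). NELFA, of the negative elongation factor, changed by -1.34 and ZNF721 by -1.32. EIF3CL changed by -1.97, but it has a near-identical paralog and its reads are uncertain. These 4 calls were lost without input replicate A (adjusted p 0.433 to 0.726) and without input replicate B (0.252 to 0.695), and those of PELP1, NELFA and ZNF721 without Brg1 replicate A (0.0516 to 0.149).

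**Figure D5:**
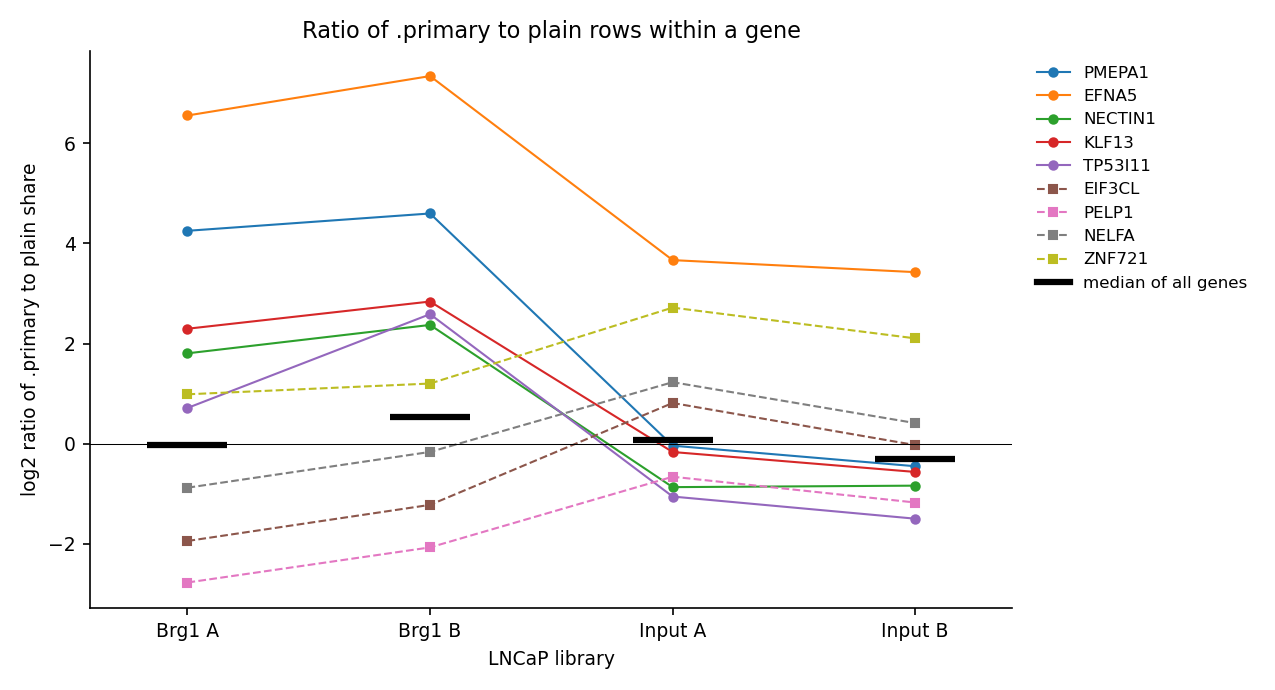
The vertical axis is the log2 ratio of the .primary to the plain share of a gene in each of the 4 libraries; lines join the values of a gene, solid where the ratio was higher in Brg1 and dashed where it was lower, and black bars are medians over 7993 genes. PMEPA1 runs from -0.45 to 4.598, whereas the medians run from -0.30 to 0.53 and that of Brg1 replicate A (-0.02) lies between the inputs.

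The same contrast in 22Rv1, another prostate cancer line with its own 4 libraries, gave values of the same direction for most of the rows called here. Of 2352 .primary rows called higher in LNCaP and present in 22Rv1, 2312 (98.3%) had both 22Rv1 Brg1 libraries above both inputs, as did 61.9% of all shared .primary rows. Of 810 .primary rows called lower, 697 (86.1%) were separated downward, beside 20.5% of all. Of 1916 plain rows called lower 1884 (98.3%) were separated downward, beside 86.8% of all, and of 172 plain rows called higher 79 (45.9%) were separated upward, beside 3.86% of all. SMARCA4 differed by 5.56 in 22Rv1 and SCHLAP1.primary by 2.06. The medians by gene span in 22Rv1 .primary rows ran from -0.11 to 1.25. The tables were normalized separately and the 22Rv1 libraries are deeper, so the levels are not compared.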

How the data were processed

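RNA immunoprecipitation sequencing of fixed LNCaP cells gave the deposited signal, which the authors normalized: each column holds whole read counts times 1 factor per library, and dividing by the smallest positive value gave whole reads for 100% of values within 0.001. How the factors were set is not given in the sources used here. The submitters' processing notes name hg38, STAR 2.6, Salmon 0.8.2, deepTools 2.5.2 and DESeq2, with no role. A share is a row's recovered reads, scaled to the library's total in the reads-per-million unit (RPM). Brg1 (n = 2) and input (n = 2) were compared with limma 3.58.1 in R 4.3.3 on log2(RPM + 0.5), with a trend, a minimum mean of 1 RPM (0 rows removed) and Benjamini-Hochberg adjustment over all 22169 rows at 0.05. The estimated prior degrees of freedom were infinite, so each row was tested against the spread of rows of like level and not its own. A called row whose replicates disagree therefore needs its per-library values. edgeR 4.0.16 and DESeq2 1.42.0 on the recovered reads were alternatives, with other scalings, pseudocounts, filters and libraries left out. The within-gene ratio was tested in the same way. The procedure was tested on simulated data.

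Groups, classes and names came from the labels and from RefSeq (GRCh38.p14), which matched 12585 of 14176 genes. Members and gene lists were chosen with earlier results of these data known. Named rows were SMARCA4 and SCHLAP1, then, among rows past the threshold that do not overlap and have a mean share of at least 20 RPM, up to 6 of each kind and direction, up to 2 of each list, kind and direction, and up to 5 genes for each direction of the ratio; not every row so listed is described, and 1 gene of the ratio is not reported here. NEAT1, MALAT1, RN7SK, RN7SL3, RPPH1, MIR663A, FP671120.1.primary, MIRLET7BHG.primary, SMARCA2, MT-TS1, KLK3 and MT-CO1 were chosen after their values were seen. No label says that libraries with the same replicate letter are paired, so the main test left pairing out. Deviations of libraries with the same letter correlated at -0.33 (Pearson, across rows). With 2 libraries a group this correlation cannot settle whether they are paired.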

Additional observations from a re-analysis of the deposited data

Results flagged for a closer look

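In 4 of the named plain rows both LNCaP Brg1 libraries lay above both inputs while both 22Rv1 Brg1 libraries lay below both inputs; no test of LNCaP against 22Rv1 was made, so the opposite directions were not tested. In 22Rv1 86.8% of all shared plain rows had both Brg1 libraries below both inputs. HIST1H1E, a linker histone, differed by 0.67 in LNCaP and -0.36 in 22Rv1. HNRNPH2, a splicing regulator, differed by 0.72 and -0.51. KRT18, a luminal keratin, differed by 0.66 and -0.80. TUBB4B, a tubulin, differed by 0.70 and -0.41. All 4 differences in LNCaP turned negative under the deposited factors, and none was called in LNCaP without Brg1 replicate A, input replicate A or input replicate B.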

How the results depend on the processing

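With 2 libraries a group and 93 named results, of which 89 were called, single libraries set many calls: 41 were called without each of the 4 libraries in turn, and 13, 9, 34 and 45 were lost without Brg1 A, Brg1 B, input A and input B. Leaving out a library gave 287 to 3574 rows higher and 280 to 3730 lower, 38 to 1855 genes with a higher ratio and 7 to 107 with a lower one, and a .primary share difference of 12.1 to 21.8 percentage points (16.95 with all). That difference was 10.84 over genes with both rows and 10.31 without the 100 rows of highest mean share. With the replicate block 754 rows were higher and 639 lower, and 106 and 9 genes by the ratio; 32 named calls were lost, among them SCHLAP1.primary (adjusted p = 0.0671, limma). With the crossed replicate block, added after seeing the data, these were 4683, 5667, 2392 and 531. With the IgG libraries in the fit 9 rows were higher and 6 lower, and 0 and 0 genes by the ratio in limma (219 and 26 at an unadjusted p under 0.05; no other tool was run on the ratio). DESeq2 called 1601 rows lower, scaling within the row kind 5107, and the sum of both rows of a gene 2042. An absolute difference of at least 1 left 1430 higher and 1220 lower. Centring the ratio gave 1114 genes lower.

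The deposited factors moved the median of all rows by -1.33 and gave 55 rows higher and 18354 lower. Under them 11 named calls were lost without a change of sign (differences 0.01 to 0.67, limma adjusted p 0.0574 to 0.974), SCHLAP1.primary among them, and the sign turned for SCHLAP1 (-1.29), ARID1B.primary (-0.59), SNHG22.primary (-0.38), HIST1H1E (-0.70), SDHA (-0.58), SDHA.primary (-0.44), SF3B4 (-0.37), HNRNPH2 (-0.64), HNRNPD.primary (-0.36), CLK3.primary (-0.38), ZNF780B.primary (-0.10), KRT18 (-0.71), FLNA (-0.44), TUBB4B (-0.67), SRP54 (-0.65), SMARCA2 (-0.83), NEAT1 (-0.17), MALAT1 (-1.11), MIR663A (-0.12) and MT-TS1 (-0.965). Without Brg1 replicate B the plain SCHLAP1 row stood at -0.22, and without Brg1 replicate A at 0.36, beside 0.07 with all. The cause of these changes was not tested.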
